A study of Mus musculus with 10 samples.

Results

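The nuclear genes of respiratory chain complexes I, II and III were followed in 10 individual mouse fetal livers, 5 Zfp36l2 knockout (KO) and 5 wild type (WT), each hybridised to 1 expression array. All fetuses were taken at embryonic day 14.5 on a mixed b6 and 129 strain background, and each sample was 1 liver. Zfp36l2 is a relative of tristetraprolin that binds AU-rich elements in mRNAs and promotes their decay. The labels do not describe the knockout allele or say how the fetuses fall into litters. The genes were taken by name: probe sets annotated to a single symbol that begins with Ndufa (not Ndufaf), Ndufb, Ndufc, Ndufs, Ndufv or Uqcr, or that is Sdha, Sdhb, Sdhc, Sdhd or Cyc1. This gave 104 of the 45037 probe sets, for 49 genes: 78 probe sets of 36 genes for complex I, 9 of 4 genes for complex II and 17 of 9 genes for complex III. Complex I was assigned by name, so Ndufa4 and Ndufa4l2 count there.

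Complex I (NADH dehydrogenase) takes electrons from NADH and complex II (succinate dehydrogenase) takes them from succinate. Both pass them to ubiquinone, and complex III (the cytochrome bc1 complex) passes them on to cytochrome c. Complexes I and III pump protons, complex II does not and doubles as an enzyme of the TCA cycle. Complexes I and III also hold subunits encoded by mitochondrial DNA, whereas every subunit of complex II is encoded in the nucleus. At this age the fetal liver is the main site of red cell formation, and red cells clear their mitochondria as they mature.

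The 49 genes lie on 18 chromosomes of GRCm38.p6, with at most 4 on any of them. A sequence feature known from respiratory genes is the binding motif of NRF1, a transcription factor of many nuclear mitochondrial genes. In RefSeq promoter windows (GRCm38.p6, 250 bases before to 50 after each annotated start), available for 40 of the 49 genes, the letters GCGCA, then any base, then GCGC were found on either strand in 8, or 20%, against 5.19% of all 27025 genes with a window. The motif letters CCGGAAGT of GABP (NRF2) were found in 3 member windows, or 7.5%, against 4.31% of all, and AAGATGGC of YY1 in 6, or 15%, against 3.19%. No member window held more than 1 of these motifs. None of the 3 motifs contains another, and a match describes letters only, not binding. The windows of 1 gene per complex are shown in part, with each NRF1 match on either strand in capitals, because these are the holders with the smallest unadjusted p of their complex. The 1 match of Ndufa5 begins at position -190 from its start (chr6:24527682-24527741, minus strand). The window of Sdha holds 3 matches, of which the one at -98 is shown (chr13:74350304-74350363, minus strand), and that of Uqcrc1 holds 2, at 6 and 31, both shown (chr9:108936638-108936697, plus strand).
Ndufa5: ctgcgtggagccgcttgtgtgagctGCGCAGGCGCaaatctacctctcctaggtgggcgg
Sdha: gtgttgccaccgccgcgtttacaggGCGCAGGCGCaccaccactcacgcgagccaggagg
Uqcrc1: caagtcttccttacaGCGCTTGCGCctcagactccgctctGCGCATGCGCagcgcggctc

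Array medians ran from 19.47 to 25.01 intensity units as deposited. The brightest Zfp36l2 probe set read 108, 82.3, 109, 103 and 108 in KO livers, against 396, 397, 596, 391 and 389 in WT livers. Its log2 difference was -2.08 ± 0.13 (SE, limma adjusted p = 1.97e-05), as the labels have it. A second tested probe set of the gene was dim, at 12.4 to 33.7 in KO and 17.9 to 41.9 in WT livers. It gave -0.32 ± 0.40 (limma adjusted p = 0.789), and another probe set of the gene was too dim to test. The fetal liver marker Afp read 15733 to 16538 in KO livers, against 16088 to 16538 in WT livers. Alb read 13659 to 16088 in KO livers, against 15041 to 15733 in WT livers. Quantile normalization gives all arrays the same set of values, so readings at the top of the scale can differ little. Of 9 tested hepatocyte genes 6 had positive differences, with a median of 0.025. At an unadjusted limma p under 0.05 there were 2, both positive, and 0 were called. Of the tested markers of other cells, all 10 megakaryocyte genes had negative differences, 3 of them called (summed intensity 1769 to 2755 in KO livers, against 4024 to 5844 in WT livers). Of 10 erythroid genes 9 had negative differences, all 9 at an unadjusted limma p under 0.05 but 0 called, with a median of -0.26. Each liver's median deviation over the erythroid genes did not overlap, at -0.19 to -0.051 in KO livers against 0.017 to 0.27 in WT livers, while their summed intensity did (22165 to 25697 in KO livers, against 24009 to 30796 in WT livers). All 12 macrophage genes had positive differences, 0 called (8763 to 10418 in KO livers, against 3937 to 9743 in WT livers). Neutrophil markers summed to 14162 to 26777 in KO livers, against 6348 to 28016 in WT livers. Of 10 tested, 8 had positive differences, 6 of them at an unadjusted limma p under 0.05 but 0 called. Endothelial markers summed to 961 to 1183 in KO livers, against 884 to 1027 in WT livers. Of 7 tested, 5 had positive differences, 2 of them at an unadjusted limma p under 0.05 but 0 called. Of the muscle and heart markers 3 of 10 were tested, all dim. Their intensities summed without overlap to 62.1 to 72.5 in KO livers, against 15.96 to 49.2 in WT livers. Each liver's median deviation over these genes did overlap, at 1.015 to 1.499 in KO livers against -0.335 to 1.437 in WT livers. Of their differences 2 were positive and 1 negative, 0 at an unadjusted limma p under 0.05 and 0 called. No tested marker of the megakaryocyte, erythroid and macrophage lists was at or below 0 in any liver. The part of these marker shifts in the values given here was not tested. In RNA from whole livers, fewer cells of a type and less RNA per cell cannot be told apart.

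No gene of complexes I to III was called at a limma adjusted p under 0.05. Of the 49 genes, 47 had a probe set above the filter on dim signals, and their differences (KO minus WT, log2 scale) ran from -0.18 to 0.15, or from 11.6% below WT to 10.8% above. Only 3 of the 47 lay beyond 1.1-fold. Across the whole table limma called 11 of 27022 probe sets, or 0.0407%, and 9 of 12741 genes, or 0.0706%, and at that rate a list of 47 would usually hold no call. At an unadjusted p under 0.05 there were 3 members of 47, or 6.38%, against 10.3% of all tested genes and 19.3% of the 3423 tested genes with a mean signal at or above the dimmest member: Ndufb10 and Ndufc2 on the lower side and Uqcrq on the higher. On the brightest probe set of each gene, every KO liver lay above every WT liver in 1 member, Uqcrq, a pattern found in 1.37% of all tested genes. The opposite pattern, every KO liver below every WT liver, was found on the brightest probe set of no member and in 1.46% of all tested genes.

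The intervals show how closely each difference was estimated. They are per gene and unadjusted, and do not give the smallest difference that would have been called. The 95% interval of the log2 difference lay wholly within 0.32 of 0 for 42 of 47 members, or 89.4%. The share was 64.6% among those 3423 genes and 23.6% among all tested genes. The 3423 genes were not matched to the members in signal. Of all tested genes, 73.1% had a mean signal below that of the dimmest member and 95% below that of the median member. The widest interval was that of Sdhd, at -0.24 to 0.42, the lowest bound was that of Ndufa3 (-0.39) and the highest that of Ndufs5 (0.44). Members varied little between livers of 1 genotype: their median SD was 0.079 on the log2 scale, against 0.13 among the 3423 genes and 0.28 among all tested genes.

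**Figure D1:**
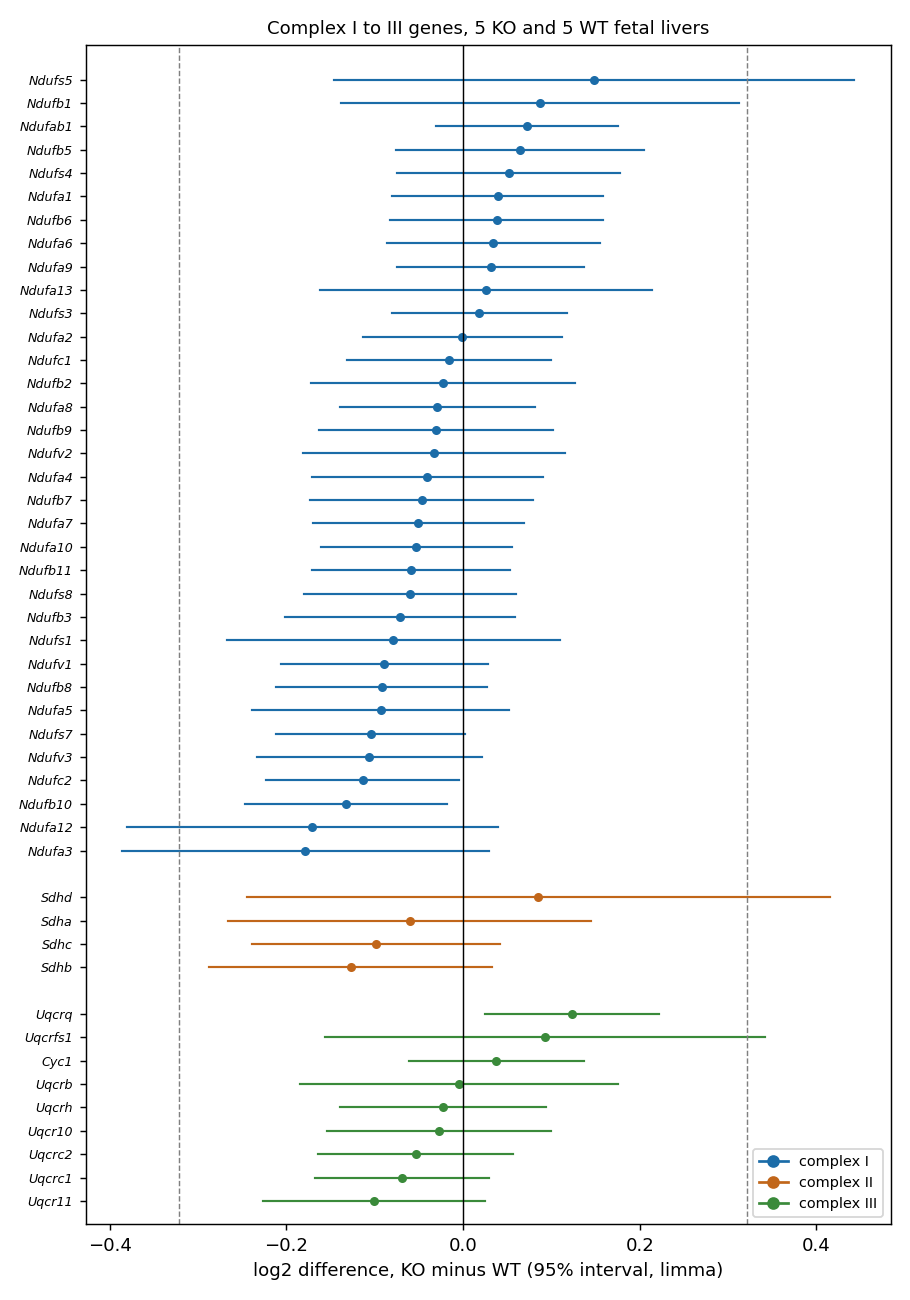
Log2 difference of KO minus WT livers (horizontal axis) for each of the 47 tested genes, by complex, with the 95% interval from limma; the dashed lines lie at 0.32 on either side of 0. Points lie between -0.18 and 0.15, and 42 intervals stay within the dashed lines.

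By complex, the median log2 difference was -0.037 for the 34 tested genes of complex I and -0.080 for the 4 of complex II. For the 9 of complex III it was -0.023. The median was 0.0041 over all tested genes and -0.011 over the 3423 with a mean signal at or above the dimmest member. Negative differences were 23 of 34, 3 of 4 and 6 of 9, together 32 of 47 or 68.1%. The share was 54.0% among those 3423 genes, not matched in signal, and 49.2% among all tested genes. The sign was relative to the scaling: with every array set to a common median in place of quantile normalization, 33 of 47 members were positive and the medians were 0.032, -0.0064 and 0.049, while the median of all tested probe sets stood at 0.065. Set against that median, the members were 0.032 lower, and 0.033 lower with quantile normalization, on the log2 scale. Single livers moved these medians by more than 1.5 times: with 1 liver left out complex I ran from -0.069 (without KO replicate 1) to -0.024 (without WT replicate 1, and likewise without WT replicate 2) and complex II from -0.11 (without WT replicate 5) to -0.042 (without WT replicate 3). Complex III ran from -0.046 (without KO replicate 1) to 0.00025 (without KO replicate 3, where the sign turned), and was -0.013 without KO replicate 2, -0.038 without KO replicate 5 and -0.0029 without WT replicate 2. Each liver's own median deviation over the genes of complex I ran from -0.048 to 0.042 in KO livers and from -0.020 to 0.083 in WT livers. For complex II it ran from -0.083 to 0.0067 in KO livers, against -0.032 to 0.11 in WT livers, and for complex III from -0.069 to 0.050, against -0.067 to 0.039. The genotypes overlapped in all 3 complexes.

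**Figure D2:**
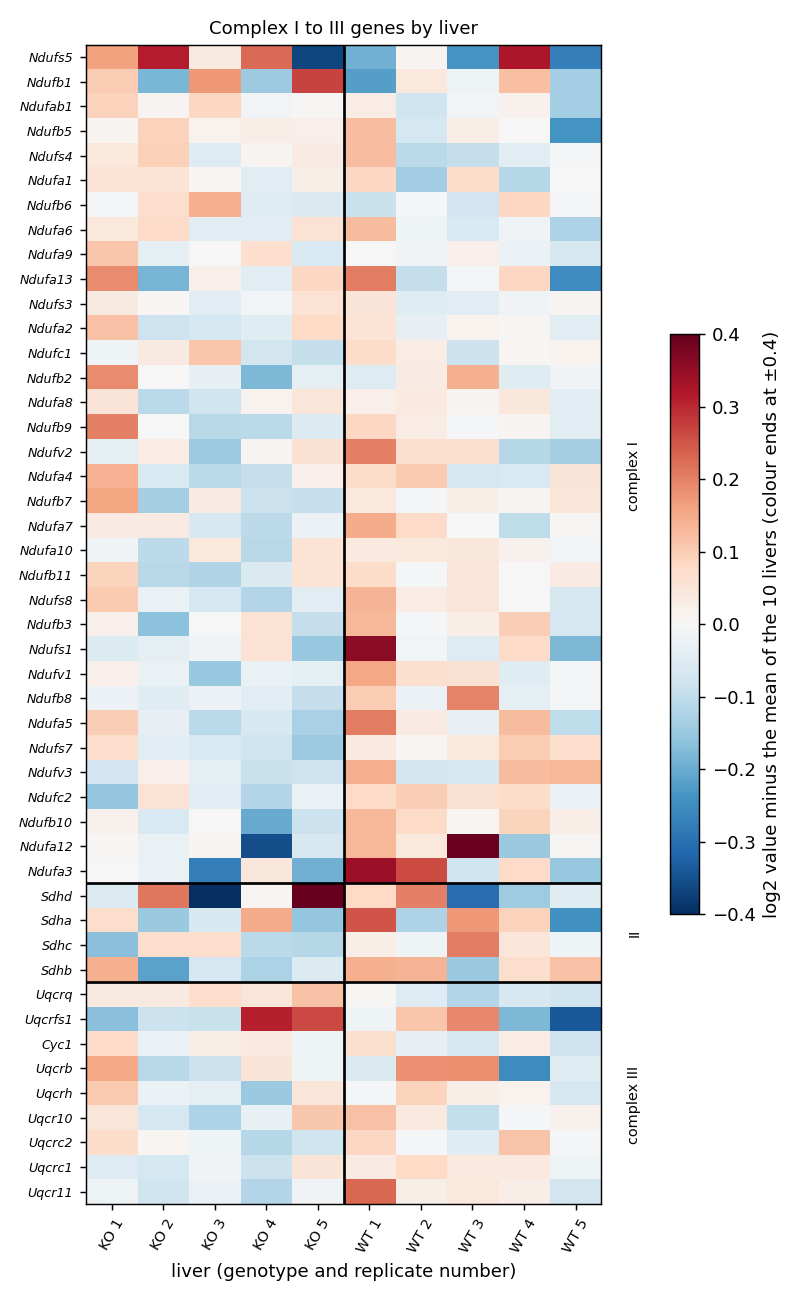
Log2 value of each tested member minus its mean over the 10 livers (colour, ending at ±0.4), with KO livers on the left and WT livers on the right; rows are genes by complex, ordered by their difference. No block of rows separates the genotypes, and Sdhd, Ndufs5 and Uqcrfs1 vary within both.

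The catalytic core of complex I consists of the subunits that carry the flavin and the iron-sulphur clusters or bind ubiquinone. Of its 6 nuclear genes tested, 5 had negative differences, with a median of -0.070 and the lowest adjusted p at 0.609. Ndufs7, which holds the last cluster before ubiquinone, read 1542, 1423, 1409, 1391 and 1330 in KO livers, against 1511, 1477, 1513, 1577 and 1542 in WT livers. KO replicate 1 lay among the WT livers and the other KO livers below them all, for a log2 difference of -0.10 ± 0.05 (limma adjusted p = 0.609). Ndufv1, the subunit that binds NADH and the flavin, averaged 1070 ± 46.3 in KO and 1138 ± 61.5 in WT livers (SD, n = 5 each), and its 3 probe sets gave -0.12 to -0.089. Ndufs1, which carries several clusters of the same arm, averaged 816 ± 42.3 in KO livers against 868 ± 128 in WT livers, where replicate 1 read 1076 and the other 4 livers 740 to 883. Without that liver its difference was 0.0017. Ndufs8, a cluster protein with 6 tested probe sets, gave negative differences on all 6, from -0.069 to -0.023. Ndufv2 (-0.033) and Ndufs3 (0.019) were the nearest to 0. The interval of Ndufs3 was among the 4 narrowest of the members, at -0.080 to 0.12.

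The Ndufb and Ndufc genes encode accessory subunits of the membrane arm, which holds the proton channels. Of 12 tested, 9 had negative differences, and the unadjusted p of Ndufb10 and Ndufc2 was under 0.05. Ndufb10 read 1483, 1403, 1465, 1274 and 1378 in KO livers, against 1604, 1542, 1474, 1556 and 1492 in WT livers. KO replicate 1 alone reached into the WT range. Its log2 difference was -0.13 ± 0.05, with an interval of -0.25 to -0.018 (limma adjusted p = 0.487, unadjusted p = 0.0264). Ndufc2 read 2254, 2611, 2428, 2312 and 2463 in KO livers, against 2646, 2682, 2616, 2641 and 2463 in WT livers. The ranges met at WT replicate 5 and crossed at KO replicate 2. Its difference was -0.11 ± 0.05 (adjusted p = 0.561), and its other tested probe sets gave -0.12 and -0.0094. Ndufb1 was the dimmest tested member, with 248 to 339 in KO livers and 241 to 305 in WT livers, and a difference of 0.087 ± 0.10. Ndufb5 averaged 932 ± 22.2 and 894 ± 81.7 in KO and WT livers, and both of its probe sets were on the positive side (0.065 and 0.047). The 1 probe set annotated to Ndufb4 alone was too dim to test.

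Of the other accessory genes of complex I, 16 were tested, 9 negative and 7 positive, with a median of -0.015 and none at an unadjusted p under 0.05. Ndufa3 read 2130, 2096, 1766, 2201 and 1867 in KO livers, against 2703, 2554, 2020, 2249 and 1919 in WT livers. The high values of WT replicates 1 and 2 stood apart from the remaining livers, which overlapped, and the difference of -0.18 ± 0.10 was not called (limma adjusted p = 0.686). A second bright Ndufa3 probe set gave -0.19, and a dim one, below 0 in KO replicate 3, gave -2.99 ± 2.60. Ndufa12 read 1434, 1404, 1440, 1118 and 1365 in KO livers, against 1566, 1471, 1881, 1288 and 1432 in WT livers, with KO replicate 4 low and WT replicate 3 high. Its difference was -0.17 ± 0.10, but its 4 tested probe sets lay between -0.17 and 0.087 and so differed in sign. Ndufv3 (-0.11) and Ndufa5 (-0.093) were next on the negative side.

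On the positive side Ndufs5 read 575, 639, 528, 602 and 399 in KO livers, against 450, 519, 437, 643 and 426 in WT livers. Both genotypes covered nearly the same range, and the difference of 0.15 ± 0.14 was not called (limma adjusted p = 0.741). Ndufab1 encodes the mitochondrial acyl carrier protein, which sits in complex I and also serves lipoic acid synthesis. It averaged 2662 ± 87.7 in KO and 2533 ± 123 in WT livers, a difference of 0.072 ± 0.05. Ndufs4, mutated in human Leigh syndrome, gave 0.052, and Ndufa1 gave 0.039. Ndufa4, now placed in complex IV despite its name but counted by name with complex I throughout, gave -0.041. The probe set of Ndufa4l2, a hypoxia-induced paralog of Ndufa4, was too dim to test. On the targeted gene's own chromosome, Ndufb10, Ndufv3, Ndufa7 and Ndufv2 share chromosome 17 with it and gave -0.13, -0.11, -0.050 and -0.033.

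Complex II has a catalytic head of Sdha, the flavoprotein that oxidises succinate, and Sdhb, the iron-sulphur protein, on the membrane anchors Sdhc and Sdhd. Sdhb read 1725, 1347, 1489, 1429 and 1505 in KO livers, against 1725, 1715, 1410, 1639 and 1694 in WT livers. KO replicate 1 was as high as the highest WT liver and WT replicate 3 lay among the KO livers, and the difference was -0.13 ± 0.07 (limma adjusted p = 0.714). Sdha read 1441, 1239, 1315, 1523 and 1234 in KO livers, against 1635, 1262, 1549, 1465 and 1161 in WT livers, a difference of -0.060 ± 0.10 within a wide overlap. Sdhc read 1069, 1260, 1260, 1113 and 1110 in KO livers, against 1223, 1187, 1382, 1241 and 1186 in WT livers, with 2 KO livers among the WT values and 3 below them, a difference of -0.099 ± 0.06.

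Sdhd was the most variable gene of the complex. It read 1217, 1465, 905, 1273 and 1829 in KO livers, against 1336, 1455, 1025, 1147 and 1223 in WT livers. Its highest and lowest values both came from KO livers, replicates 5 and 3, and its difference was 0.085 ± 0.15 (limma adjusted p = 0.859). A dimmer Sdhd probe set averaged 451 in KO and 498 in WT livers and gave -0.17, and without KO replicate 5 the brighter one gave -0.037. No direction can be read for this gene.

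In complex III, Cyc1 (cytochrome c1) and Uqcrfs1 (the Rieske iron-sulphur protein) carry electrons beside the cytochrome b of mitochondrial DNA. Cyc1 read 2760, 2572, 2659, 2690 and 2587 in KO livers, against 2736, 2557, 2497, 2670 and 2470 in WT livers. WT replicates 2, 3 and 5 lay below every KO liver and the other WT livers among them, and its difference was 0.038 ± 0.05, with an interval of -0.061 to 0.14. Uqcrfs1 read 1562, 1654, 1648, 2176 and 2105 in KO livers, against 1735, 1892, 2006, 1549 and 1386 in WT livers, a difference of 0.093 ± 0.12. Only KO replicates 4 and 5 lay above the WT livers. The core proteins, descended from a processing peptidase, averaged 1509 ± 59.1 and 1583 ± 37.9 for Uqcrc1 in KO and WT livers (-0.069) and 2714 ± 139 and 2816 ± 133 for Uqcrc2 (-0.054, with 0.053 on its second probe set).

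Among the small subunits, Uqcrq, which lies at the cytochrome b core, was the member with the smallest p. It read 1186, 1187, 1214, 1197 and 1256 in KO livers, against 1162, 1117, 1067, 1106 and 1094 in WT livers. All 5 KO livers were higher than all 5 WT livers, by a narrow margin of 1186 over 1162. The log2 difference was 0.12 ± 0.05, with an interval of 0.025 to 0.22 (limma adjusted p = 0.427, unadjusted p = 0.0181; exact two-sided permutation p = 0.00794, the minimum for 2 groups of 5, and 0.339 adjusted over all tested probe sets). It was 0.19 with median scaling, 0.11 without normalization and 0.11 to 0.14 with 1 liver left out, but -0.097 where the gene's probe sets were averaged. A second tested probe set was dim, at 27.6 in KO and 35.1 in WT livers, and gave -0.32 ± 0.32.

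Uqcr11, next to the Rieske protein, had the most negative difference of the complex (-0.10 ± 0.06, limma adjusted p = 0.713), where KO livers read 1182 to 1268 and WT livers 1218 to 1502. Uqcrh, the hinge protein that helps cytochrome c dock, gave -0.023, and Uqcrb, a small subunit at the ubiquinone site, gave -0.0045 with 6082 to 7311 in KO and 5524 to 7479 in WT livers. For Uqcr10, another small subunit, the brightest probe set gave -0.027 and a second -0.022. The dimmest one read 257, 230, 232, 228 and 231 in KO livers, against 191, 210, 187, 195 and 168 in WT livers. There the genotypes did not overlap, with a difference of 0.31 ± 0.08 (limma adjusted p = 0.217, unadjusted p = 0.00267), from 0.27 to 0.39 over 19 settings of which none called it. The probe sets of Uqcr10 thus gave different answers, and which transcripts each one reads was not analysed here.

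**Figure D3:**
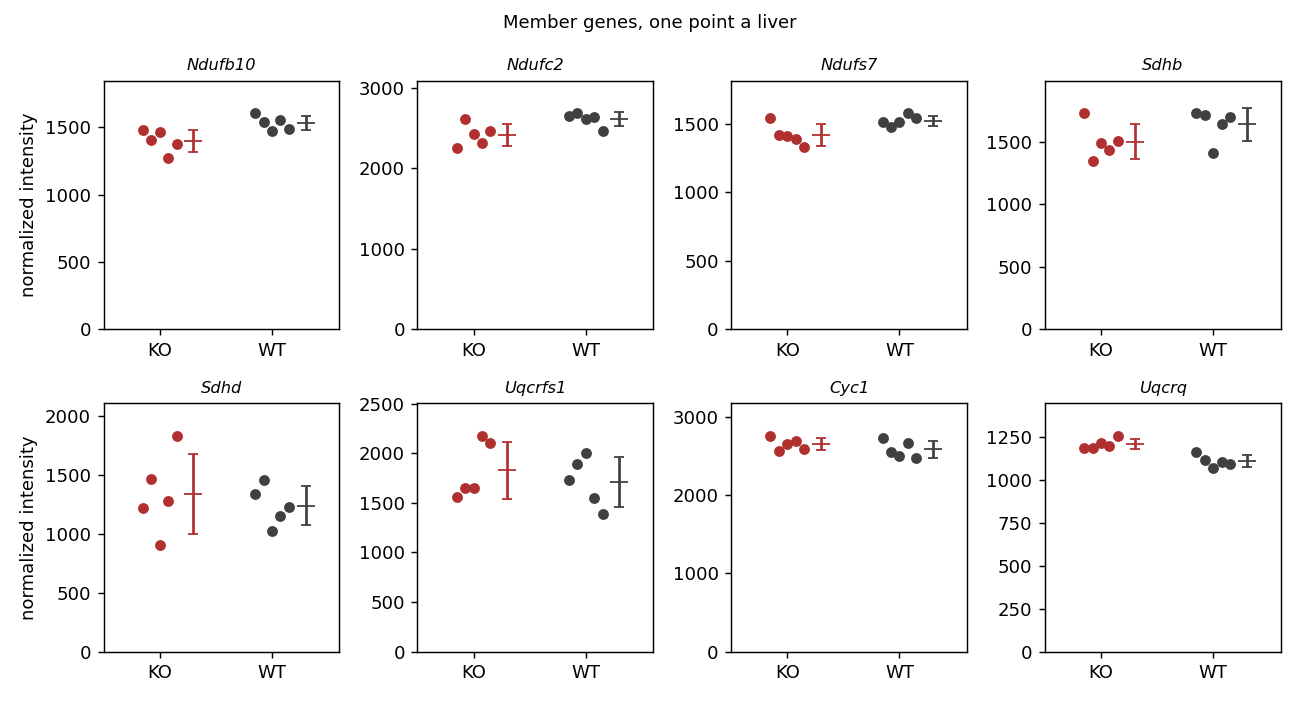
Normalized intensity (vertical axes, from 0) of 8 members in each KO liver (left) and WT liver (right), with the mean and SD of 5 livers beside the points. Of these genes, Uqcrq alone has no overlap, and Sdhd and Uqcrfs1 spread widely within a genotype.

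Of the 47 tested genes, 27 had 2 or more tested probe sets, and in 7 of these the differences had both signs. The widest gaps came from dim probe sets: in Ndufb8 the bright probe set gave -0.092, and one averaging 22.3 in KO and 24.5 in WT livers, below 0 in WT replicate 4, gave 2.22 ± 2.53. In Ndufab1 one averaging 23.5 in KO and 43.6 in WT livers gave -0.93 (limma adjusted p = 0.422), against 0.072 on the bright one. On that dim probe set every KO liver lay below every WT liver. Over all 94 tested probe sets of the members, 69 had negative and 25 positive differences, and 6 had an unadjusted limma p under 0.05. These counts take in several probe sets of the same gene. The median difference of all 27022 tested probe sets was 0.00050, and the matching shares among them are not given here. The 10 untested probe sets read between -43.9 and 37.4 in any liver.

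**Figure D4:**
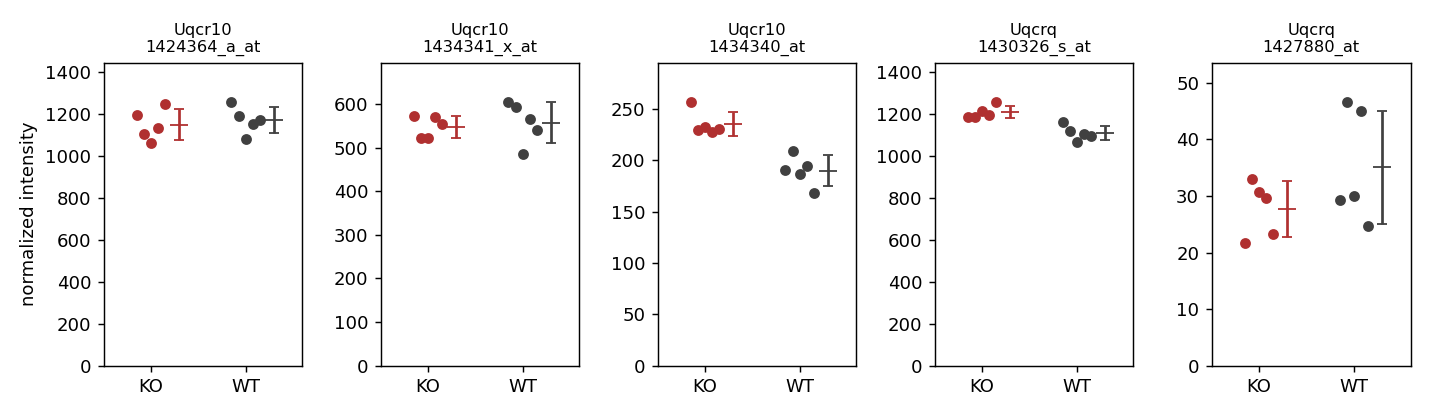
Normalized intensity (vertical axes, from 0) of the 3 probe sets of Uqcr10 and the 2 tested ones of Uqcrq in each KO liver (left) and WT liver (right), with the mean and SD of 5 livers. Genotypes separate in the dimmest Uqcr10 probe set and in the brighter Uqcrq probe set only.

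Neighbouring lists were read in the same fit. In complex IV, 0 of 12 tested genes were called, 9 were negative and the median was -0.060. Among the positive ones, Cox6a2 (2.93 ± 2.52) was read from a dim probe set, below 0 in WT replicate 4. Cox6b2, a subunit isoform known from testis, read 450 to 650 in KO livers, against 690 to 863 in WT livers, without overlap, but was not called (-0.45 ± 0.11, limma adjusted p = 0.166). In ATP synthase 0 of 15 were called, 13 were negative, the smallest p was that of Atp5h (-0.12 ± 0.04, limma adjusted p = 0.429), the median was -0.031 and all 15 intervals lay within 0.32 of 0. Assembly factors of complexes I to III had 0 of 24 called, 13 negative and a median of -0.0086, with Timmdc1, a factor of complex I, at the smallest p (1.01 ± 0.36, limma unadjusted p = 0.0153, on a dim probe set). The TCA cycle had 0 of 12 called and a median of -0.017, and its smallest p was that of Ogdh, a subunit of 2-oxoglutarate dehydrogenase (-0.27 ± 0.09, adjusted p = 0.371).

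Mitochondrial ribosomal proteins had 0 of 40 called and a median of -0.00051, and Mrpl23 (-0.18 ± 0.06, limma adjusted p = 0.387) had the smallest p. Biogenesis regulators had 0 of 16 called and a median of -0.050, with Tfb1m, a mitochondrial rRNA methyltransferase, at -0.20 (adjusted p = 0.556). In the mass and import list 14 of 16 were positive, with a median of 0.043 and 0 called. Timm23, the channel of the inner membrane translocase, read 1865 to 2053 in KO livers, against 1575 to 1804 in WT livers, without overlap (0.24 ± 0.05, adjusted p = 0.107). Mitophagy genes had 0 of 6 called and a median of 0.012, with Bnip3, a hypoxia-induced receptor, at 0.40 ± 0.17 (adjusted p = 0.525). Glycolysis genes had a median of 0.27, with 10 of 15 at an unadjusted p under 0.05, 9 of them higher, and 0 called; the smallest p was that of phosphofructokinase Pfkp (1.47 ± 0.25, adjusted p = 0.0676), which was dim, at 71.9 to 130 in KO and 23.3 to 41.8 in WT livers. All medians here are over quantile-normalized values. Whether any list differs from the respiratory genes was not tested.

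**Figure D5:**
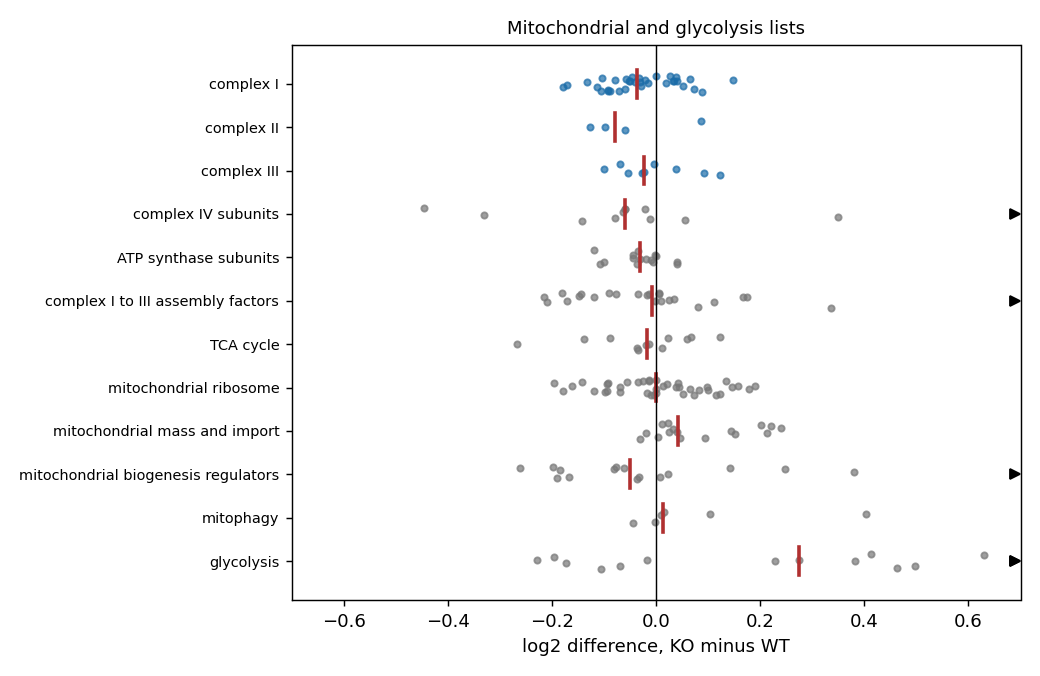
Log2 difference of KO minus WT livers (horizontal axis) for every tested gene. Complexes I to III are blue and the other lists grey, with each list's median as a red bar. The 5 genes beyond ±0.7 are drawn as triangles at the edge. Of these, Cox6a2 (2.93 ± 2.52, complex IV) and Esrra (2.88 ± 2.50, biogenesis regulators) were each dim and below 0 in 1 WT liver. The respiratory genes crowd around 0, and the glycolysis median lies at 0.27.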

How the data were processed

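One array was read per liver, with genotype and replicate number taken from the sample titles. The deposited table holds linear intensities per probe set, with 21.5% of values at or below 0; how the authors corrected and scaled them is not given in the sources used here. Values were quantile normalized, set to at least the lowest positive value (0.000978) and log2 transformed, and probe sets under the 40th percentile of mean log2 were left out. Genotype was tested with limma 3.58.1 in R 4.3.3 (eBayes with trend, two-sided, Benjamini-Hochberg over all 27022 tested probe sets, threshold 0.05). Errors after ± are limma's SE for log2 differences and SDs for intensities. Each gene was read from whichever of its probe sets had the highest mean log2. Intensities of different probe sets are not comparable levels. All 49 members matched RefSeq by gene ID, and 10 probe sets annotated to several symbols were left out. The method was tested on simulated data. Members, lists and named genes (all of complexes II and III, the complex I core, the 6 largest differences either way in the rest, members without overlap, the brightest and dimmest, probe sets at the floor, the 4 widest sign conflicts between probe sets, and each other list's smallest p) were chosen with earlier results of these data known. Alternatives covered floor, normalization, filter, variance model, probe-set choice, replicate block and each liver left out. Figures were drawn with matplotlib 3.10.9. The precision is set by having 5 livers a genotype. Litters are not labelled, so p-values measure the spread between these livers only.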

Additional observations from a re-analysis of the deposited data

Results flagged for a closer look

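Dixon's ratio set a liver apart from the other 4 of its genotype in 7 of 70 groups; at 1 in 20, chance alone would set apart 3.5. On the log2 scale, Ndufa12 was low in KO replicate 4 (10.1, nearest 10.4), Ndufb5 was high in KO replicate 2 (9.92, nearest 9.86) and Sdhb was low in WT replicate 3 (10.5, nearest 10.7). The median deviation over complex I was high in KO replicate 1 (0.042, nearest -0.025), and that over complex III was low in WT replicate 5 (-0.067, nearest 0.015). Zfp36l2 was low in KO replicate 2 (6.36, nearest 6.68) and high in WT replicate 3 (9.22, nearest 8.63).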

How the results depend on the processing

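No member of the 47 was called under any of the 19 alternatives to the limma setting, and the lowest limma adjusted p of a named member was 0.285. The exact permutation test called no member, and its smallest possible unadjusted p with 5 livers a genotype is 0.00794. Its lowest adjusted p over all tested probe sets was 0.339, which was also that of the brightest Zfp36l2 probe set. It called 0 probe sets, that of Zfp36l2 included, so it cannot tell whether a member differs. Probe sets called over the whole table numbered 11, against 57 with a floor of 16, 30 without the filter, 29 with the stricter filter, 2 without trend, 28 with the replicate block, and 5 to 102 with 1 liver left out (5 without KO replicate 2, 7 without KO replicate 4, 102 without WT replicate 5). The labels do not say whether the replicate numbers pair the livers. Deviations of same-numbered livers correlated at 0.00097 to 0.031. For KO replicates 1, 3, 4 and 5 the best-correlated WT liver bore the same number. For KO replicate 2 it was WT replicate 1. Whether the livers are paired was not tested. The replicate block left the medians as they were and called 0 members. Median scaling moved the complex medians to 0.032, -0.0064 and 0.049 and turned 8 named members positive, all of them still below the median of all tested probe sets, then 0.065: Sdha (0.012), Uqcr10 (0.042), Uqcrb (0.050), Uqcrc2 (0.027), Uqcrh (0.049), Ndufs1 (0.0024), Ndufs8 (0.020) and Ndufv2 (0.036). With 1 liver left out, signs changed in Uqcrb (-0.067 to 0.042), Uqcr10 (-0.057 to 0.00025), Uqcrh (-0.052 to 0.012), Sdhd (-0.037 to 0.22), Ndufs1 (-0.13 to 0.0017) and Ndufv2 (-0.070 to 0.013). Taking the mean of a gene's probe sets turned Sdhd (-0.041), Uqcr10 (0.087), Uqcrq (-0.097) and Ndufab1 (-0.19). The cause was not tested.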

Other observations

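ND5, a proton-pumping subunit of complex I encoded by mitochondrial DNA, has 1 probe set on the array. It lies outside the naming rule and was chosen after its values were seen. It read 6464, 7713, 7798, 7611 and 8520 in KO livers, against 5786, 5574, 5819, 6050 and 6869 in WT livers. Only KO replicate 1 and WT replicate 5 overlapped. The log2 difference was 0.34 ± 0.07, with an interval of 0.18 to 0.50 (limma adjusted p = 0.118, unadjusted p = 0.000548), and over 19 settings it ran from 0.30 to 0.40 with adjusted p between 0.0350 and 0.463. It was called in 1 of them, without WT replicate 5. No nuclear member had so high a difference on its representative probe set.

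Probe sets annotated to several symbols also cover genes of complex I. The bright ones shared by Ndufb4 and its copies gave -0.043 and -0.049, that of Ndufa11 and its copy -0.040 and that of Ndufs6 and its copy -0.022, while those shared with pseudogenes gave 0.12 for Ndufs5 and 0.11 for Ndufab1. None of these was called (limma adjusted p = 0.737 to 0.906). Reads of near-identical copies cannot be told apart by such probes.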
